A study of Mus musculus with 46 samples.

Results

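Myeloid cells that refill the mouse brain after microglial depletion were compared with control microglia in the absence of an inflammatory stimulus. The comparison holds 7 of the 46 libraries of the series, 4 of WM repopulating cells (WM, white matter) and 3 of control microglia, and it was chosen by the titles of the samples, which give the group and a time of 0 hr. All mice were male C57BL/6, about 2 months old at the start. For WM repopulating cells, mice were fed PLX3397, an inhibitor of the receptor tyrosine kinases CSF1R, KIT and FLT3, at 600 ppm in chow for 14 days and then returned to vehicle chow for 28 days. Control microglia came from mice fed vehicle chow throughout, which never received the inhibitor. None of these 7 samples came from LPS-treated mice (lipopolysaccharide, a bacterial cell wall component that sets off inflammation). Mice of the same experiment sampled 6 and 24 hr after LPS made up the other 17 libraries of the table. CD11b+CD45int cells, the gate that holds microglia, were sorted from brain hemispheres and their RNA was sequenced. The gate takes all such cells of the hemisphere at 28 days of recovery, so the WM group is defined by the treatment of the mouse and not by where in the brain a cell lay, and PLX3397 also inhibits KIT and FLT3, which act in blood progenitors.

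Microglia are the resident macrophages of the brain and depend on CSF1R signaling for survival, so that its inhibition removes them and its release lets the niche refill. In healthy tissue they carry a homeostatic set of genes that includes the purinergic receptor *P2ry12*, the membrane protein *Tmem119* and the transcription factor *Sall1*. Near plaques, in aging and in white matter they can turn on a second set led by *Apoe*, *Axl*, *Clec7a* and *Cst7*, known as the disease-associated or white matter-associated profile. Macrophages that enter the brain from blood share the surface gate of microglia in part but often lack *Sall1* and *P2ry12*.

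Expression was deposited as FPKM (a gene's reads scaled by its length and by library size) for 15285 genes, and 12684 of them reached 1 FPKM in at least 3 of the 24 libraries and were tested. A gene could meet this filter through 1 group alone, the one in which it was high. The 7 libraries held 6384799 to 8379693 reads in genes. On a 2-kb gene, 1 read amounted to 0.0642 to 0.0792 FPKM. A gene listed at 0 could be present below that level. Across genes, Pearson's r of log2(FPKM + 1) was 0.963 to 0.974 within groups (9 pairs of libraries), against 0.959 to 0.966 between groups (12 pairs). Genes are not independent replicates, and these values describe the libraries only. Differences were tested with limma on log2(FPKM + 1), in a fit of all 24 libraries, 2-sided, with Benjamini-Hochberg adjustment. A gene was called differentially expressed (DEG) at an adjusted p under 0.05 and a log2 fold change above 1 or below -1, and fold changes on this scale understate those of low genes. Values are given in the order of the replicates, as mean ± SD over n = 3 control and n = 4 WM libraries, and each adjusted p below comes from this fit.

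Both groups carried the microglial markers at high levels. The 7 markers *P2ry12*, *Tmem119*, *Cx3cr1*, *Csf1r*, *Aif1*, *Itgam* and *Ptprc* had means of 80.4 to 3008 FPKM in control microglia and 99.4 to 3918 FPKM in WM repopulating cells, and none of the 7 passed the test. *P2ry12*, whose protein senses nucleotides from injured cells, was at 3131, 3242 and 2650.2 FPKM in control microglia and 2133, 2542, 2797 and 2765 FPKM in WM repopulating cells (log2 fold change of -0.24 with SE 0.24, adjusted p = 0.767). The lowest values of *P2ry12* were in WM repopulating cells, but the groups overlapped. *Tmem119* was at 2375, 3042 and 3259 FPKM in control microglia and 3688, 3862, 3941 and 4182 FPKM in WM repopulating cells, above the controls in every WM library but past no threshold (log2 fold change of 0.45 with SE 0.30, adjusted p = 0.595). *Sall1*, the transcription factor that separates microglia from other brain macrophages, was at 86.2, 85.8 and 92.7 FPKM in control microglia and 77.9, 73.7, 81.7 and 73.4 FPKM in WM repopulating cells (log2 fold change of -0.20 with SE 0.18, adjusted p = 0.709). The *Sall1* groups did not overlap, yet the difference was small and missed the threshold, with a 95% interval of -0.56 to 0.16 on the log2 scale.

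Markers of other cells were present to different degrees, and 2 of 11 marker lists had sums that did not overlap between the groups. The summed FPKM of 22 markers of border-associated macrophages (the macrophages of meninges and perivascular spaces, such as *Mrc1*, *Pf4* and *Lyve1*) was 298 to 426 in control microglia and 207 to 289.6 in WM repopulating cells. The gene with the highest level in this sum was *Ms4a6b*. The 6 choroid plexus and ependymal markers, led by the transthyretin gene *Ttr* (log2 fold change of 1.92, adjusted p = 0.144), summed to 77.5 to 222 FPKM in control microglia and 283 to 718 FPKM in WM repopulating cells. Neutrophil markers (18, among them *S100a8*) summed to 1957 to 9337 FPKM in control microglia and 3122 to 11507 FPKM in WM repopulating cells, and were highest in control replicate 1 and WM replicate 3. T, B and NK cell markers summed to 395 to 525 FPKM in control microglia and 361 to 464 FPKM in WM repopulating cells, most of it the immunoglobulin gene *Ighm*. Monocyte and bone marrow markers summed to 544 to 1260.4 FPKM in control microglia and 797 to 1426 FPKM in WM repopulating cells. Of these, 2 of 28 passed the adjusted p, *Cd34* and *Ms4a4b*, both higher (7.14%, against 1.21% of all tested genes). Each of the 2 is also given under another heading below. In the same order, the sums were 1042 to 1240.3 and 1125 to 1311 FPKM for oligodendrocytes (led by *Trf*), 458 to 503 and 402 to 547 FPKM for endothelial and mural cells, and 66.9 to 74.3 and 57.2 to 71.8 FPKM for astrocytes. Sums were far lower for neurons (4.72 to 7.97 and 3.65 to 8.74), erythrocytes (7.38 to 11.3 and 5.35 to 10.9) and oligodendrocyte precursors and neuroblasts (3.35 to 5.7 and 1.78 to 6.56). No marker listed in the table was at 0 in all 7 libraries. The part of other cells in the differences below was not tested. In bulk RNA, fewer cells of a type and less RNA per cell cannot be told apart.

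**Figure D1:**
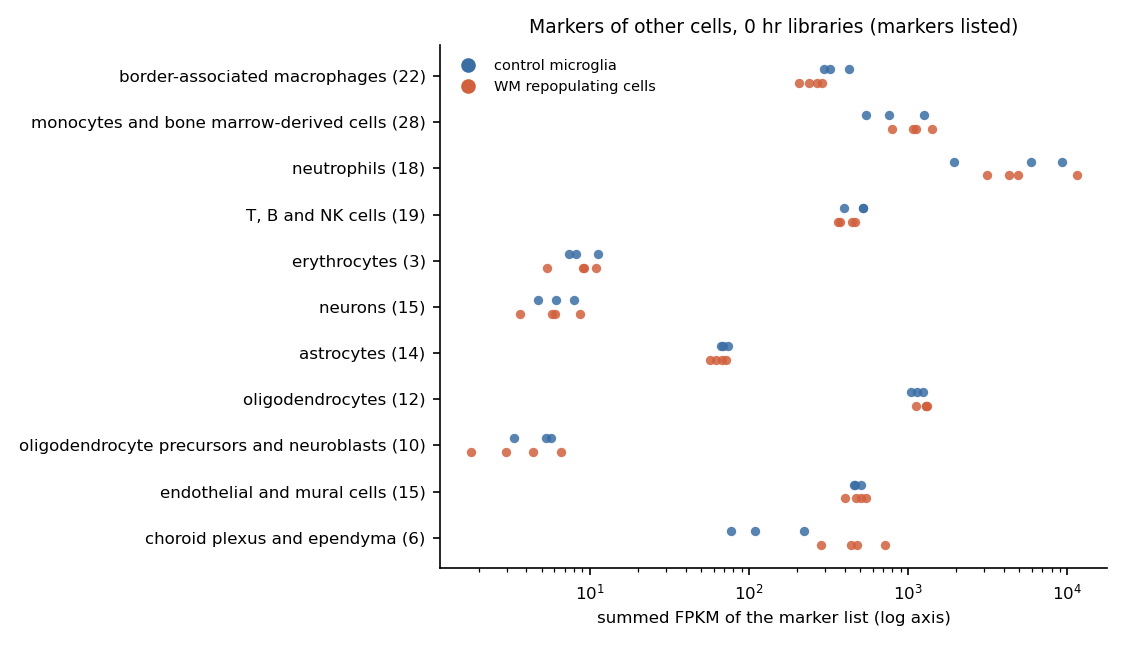
Summed FPKM of marker lists for other cell types (log x axis) in each of the 7 libraries at 0 hr, control microglia in blue and WM repopulating cells in orange, with the number of markers listed in parentheses. The groups separate for border-associated macrophages (298 to 426 against 207 to 289.6) and for choroid plexus and ependyma (77.5 to 222 against 283 to 718), and neutrophil markers vary most within the groups.

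WM repopulating cells differed from control microglia in 99 DEGs, 60 higher and 39 lower. These are 0.781% of the genes tested, or 0.473% for higher and 0.307% for lower genes, against a median log2 fold change of 0.01 over all genes. A test of the adjusted p alone called 154 genes (1.21%), 91 higher (0.717%) and 63 lower (0.497%), of which 55 (31 higher and 24 lower) were within the fold limit, and 1514 genes had an unadjusted p under 0.05. The FPKM of the groups did not overlap for 96 of the 99 DEGs and for 13.6% of all tested genes. Among the DEGs, 12 of the higher genes had a control mean below 1 FPKM and 16 of the lower genes a WM mean below 1 FPKM. The most highly expressed DEGs were *Cebpb* and *Ier5* among the higher genes and *Crybb1* and *Upk1b* among the lower ones.

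**Figure D2:**
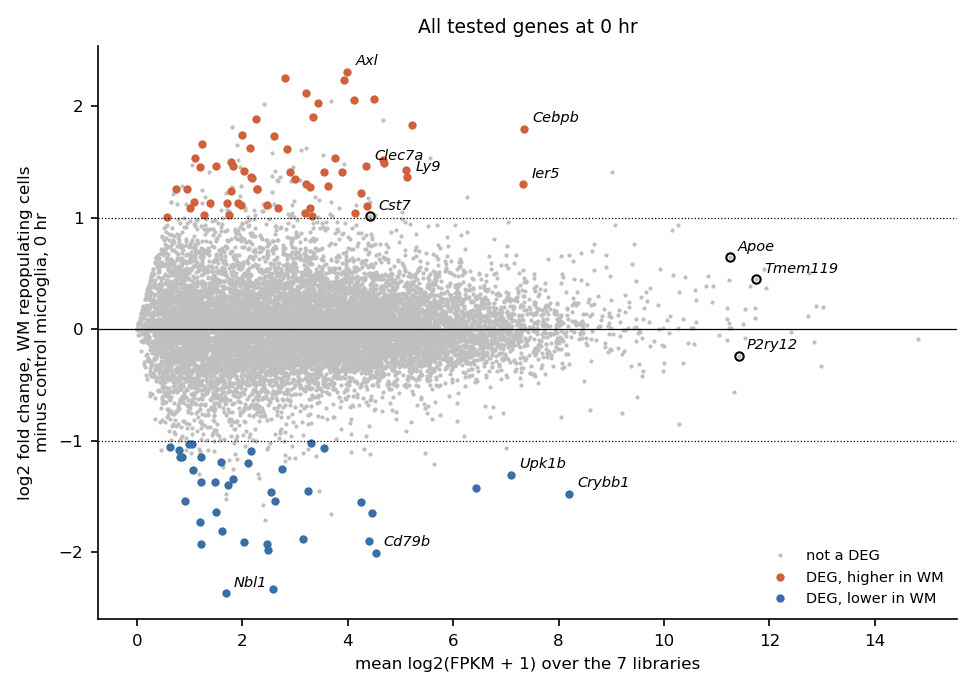
Log2 fold change of WM repopulating cells minus control microglia (y axis) against mean log2(FPKM + 1) over the 7 libraries (x axis) for the 12684 tested genes, with the 60 higher DEGs in orange, the 39 lower DEGs in blue, other genes in gray, 4 named genes that are not DEGs circled and dotted lines at the fold limit. *Cebpb*, *Ier5*, *Upk1b* and *Crybb1* are the DEGs farthest to the right, while *Apoe*, *Cst7*, *P2ry12* and *Tmem119* (circled) are not DEGs.

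The number of DEGs depended on single libraries. It was 66 to 80 when 1 of the 7 libraries was left out, and 33 of the 99 kept an adjusted p under 0.05 in all of these fits. The balance of directions moved as well, from 60.6% higher to 34 higher and 37 lower (47.9% higher) without WM replicate 2, and to 32 higher and 41 lower (43.8% higher) with voom, a limma method for counts, on reads recovered from the FPKM values. Without both libraries highest in neutrophil markers, control replicate 1 and WM replicate 3, 38 DEGs were found (20 higher and 18 lower), of which 30 were among the 99. Voom and the choice of these libraries were added after the data were seen.

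The receptor tyrosine kinase *Axl* (Entrez 26362), which binds phosphatidylserine on dying cells through its ligand Gas6, had the largest increase on the log2(FPKM + 1) scale. By ratio of means some genes near 0 in control microglia rose more, such as *Gpt* (14.7, against 5.71 for *Axl*). *Axl* was at 4.95, 5.54 and 5.58 FPKM in control microglia and 35.1, 27.5, 28.9 and 30.8 FPKM in WM repopulating cells. All 4 WM libraries lay far above all 3 control libraries, a change from 5.35 ± 0.354 to 30.6 ± 3.34 FPKM (log2 fold change of 2.31 with SE 0.29, adjusted p = 0.00018). *Clec7a* (Entrez 56644), the beta-glucan receptor dectin-1, was at 17.6, 6.89 and 9.03 FPKM in control microglia and 33.999, 32.9, 29.9 and 25.4 FPKM in WM repopulating cells. Its highest control value was in replicate 1, below every WM library, and the means went from 11.2 ± 5.69 to 30.5 ± 3.86 FPKM (log2 fold change of 1.46 with SE 0.28, adjusted p = 0.00865). *Fcgr4*, an activating Fc receptor, was higher with all WM libraries above the controls, from 22.1 ± 0.946 to 40.5 ± 4.99 FPKM (log2 fold change of 0.84, adjusted p = 0.0103), within the fold limit. Of the 32 tested genes of TAM receptors and phagocytic receptors, these 3 passed the adjusted p and none was lower (9.38%, against 1.21% of all tested genes, the share that each list's percentage below is to be read against), with a median log2 fold change of 0.06. *Mertk*, the other main TAM receptor of microglia, was at 87.5 ± 4.22 FPKM in control microglia and 83.5 ± 4.25 FPKM in WM repopulating cells (log2 fold change of -0.07, adjusted p = 0.966). Among 49 tested Fc receptors, Siglecs and genes of ITAM signaling, *Clec7a*, *Fcgr4*, the adaptor *Lat* and the paired receptor *Pilra* (log2 fold change of 1.11, adjusted p = 0.0159) were higher and *Cd79b* was lower (10.2%), with a median of 0.13. When each library was left out in turn, *Axl* and *Fcgr4* kept an adjusted p under 0.05 in all 7 fits. The call did not hold in every fit with 1 library left out for *Clec7a* (lost in 1 of 7 fits, adjusted p up to 0.073 without control replicate 2) and *Pilra* (lost in 2 of 7 fits, adjusted p up to 0.0814 without control replicate 3).

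Genes of the disease- and white matter-associated profile were on balance higher. Of 40 tested members, 33 had a log2 fold change above 0, against 51.6% of all tested genes, the median was 0.36 and 6 passed the adjusted p, all higher (against 1.21% of all tested genes). The list was put together with earlier results of these data known, so its count is not independent evidence. Beside *Axl* and *Clec7a*, the called members were *Ly9*, *Hcar2*, *Pdcd1* and the sialomucin gene *Cd34*, which went from 88.7 ± 7.099 to 173 ± 15.9 FPKM (log2 fold change of 0.96, adjusted p = 0.0027). Other well-known members did not pass. *Apoe*, the main lipid carrier of the brain, was at 2538, 1628 and 1605 FPKM in control microglia and 3291, 3637, 2775 and 2267 FPKM in WM repopulating cells (log2 fold change of 0.65 with SE 0.26, adjusted p = 0.291). The *Apoe* groups overlapped, since WM replicate 4 lay below control replicate 1. *Cst7*, a cathepsin inhibitor, was at 15.7, 15.6 and 9.48 FPKM in control microglia and 27.4, 36.8, 16.03 and 37.1 FPKM in WM repopulating cells (log2 fold change of 1.02 with SE 0.27, adjusted p = 0.06), and its WM values were spread more widely than the controls. Without WM replicate 3, the lowest of the 4, which raises the difference by construction, *Cst7* had a log2 fold change of 1.27 with adjusted p = 0.0144, and without each of the other 6 libraries the adjusted p of *Cst7* was 0.0948 to 0.239. *Ctsd*, the main aspartyl protease of lysosomes, was at 4669, 5876 and 6528 FPKM in control microglia and 7562, 7697, 8141 and 8518 FPKM in WM repopulating cells (log2 fold change of 0.50 with SE 0.22, adjusted p = 0.344), without overlap. *Lpl*, *Itgax* and *Spp1*, genes often used to mark the profile and chosen here after their values were seen, lay between 2.33 and 7.45 FPKM in all 7 libraries and did not pass (adjusted p of 0.907, 0.523 and 0.884). *Cd34* kept an adjusted p under 0.05 whichever of the 7 libraries was left out.

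*Clec7a* and the phosphodiesterase gene *Pde2a* are a higher and a lower DEG that also passed at both times after LPS. They are shown here with the 250 bases before their starts, 5′ to 3′ on the strand of the gene, from RefSeq on GRCm38.p6, because their RefSeq start lies at the boundary of the gene and within no other transcript. The window of *Clec7a* is chr6:129472786-129473035, minus strand, and that of *Pde2a* is chr7:101421441-101421690, plus strand.
Clec7a: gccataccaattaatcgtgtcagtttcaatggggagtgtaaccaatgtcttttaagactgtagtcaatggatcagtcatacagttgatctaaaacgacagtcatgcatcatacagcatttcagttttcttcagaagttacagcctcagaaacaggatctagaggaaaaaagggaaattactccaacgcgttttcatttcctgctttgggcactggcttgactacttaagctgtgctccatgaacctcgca
Pde2a: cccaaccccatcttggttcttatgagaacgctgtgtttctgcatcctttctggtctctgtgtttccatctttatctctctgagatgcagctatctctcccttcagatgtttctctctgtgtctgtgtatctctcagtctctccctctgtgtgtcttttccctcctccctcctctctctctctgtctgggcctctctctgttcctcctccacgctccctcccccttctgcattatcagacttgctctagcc
Neither window holds, on either strand, any of 8 motifs searched, so no letters are in capitals: TGANTCA (AP-1), TTGCNNAA (C/EBP), GAGGAAGT (PU.1), CACGTG (E-box), GTCTAGAC (SMAD) and the gapped motifs of the interferon-stimulated response element, MEF2 and NF-kB. Over the DEGs with a RefSeq promoter in the table, 43 higher and 22 lower, the C/EBP letters were in 6.98% and 4.55% of the windows, against 7.86% of the 9762 tested genes with one. The AP-1 letters were in 6.98% and 4.55% against 4.2%, the PU.1 letters in 4.65% and 0% against 2.72%, and the interferon-stimulated response element in 6.98% and 9.09% against 2.77%. The E-box was in 11.6% and 4.55% against 8.66%, MEF2 in 0% and 13.6% (3 windows) against 2.57%, NF-kB in 18.6% and 22.7% against 21.7%, and SMAD in 0% and 0% against 0.195%. With so few windows these shares are a description, and a match is not a binding site.

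Genes of lymphocyte signaling and immune checkpoints moved in both directions. Of 30 tested genes of NK and T cell activation and immune checkpoints, 4 were higher (*Ly9*, *Pdcd1*, *Lat* and *Cd5*) and 1 was lower (*Cd79b*) by the adjusted p (16.7%), with a median log2 fold change of 0.43. *Ly9* (Entrez 17085), a SLAM family receptor found on many leukocytes, was at 23.6, 22.5 and 13.6 FPKM in control microglia and 45.2, 52.1, 50.99 and 58.3 FPKM in WM repopulating cells. No library of one group reached the other, and the means went from 19.9 ± 5.495 to 51.7 ± 5.35 FPKM (log2 fold change of 1.36 with SE 0.18, adjusted p = 0.000206). *Pdcd1* (Entrez 18566), which encodes the inhibitory receptor PD-1, was at 9.02, 3.08 and 5.004 FPKM in control microglia and 30.6, 24.7, 24.6 and 35.05 FPKM in WM repopulating cells. The lowest WM library was well above the highest control, replicate 1 (log2 fold change of 2.23 with SE 0.51, adjusted p = 0.0278). *Slamf8*, another SLAM family gene of macrophages, went from 18.6 ± 2.01 to 52.4 ± 9.77 FPKM (log2 fold change of 1.43, adjusted p = 0.0217). The transmembrane adaptor *Scimp*, which carries signals of MHC class II and Toll-like receptors, was at 8.32, 5.51 and 6.64 FPKM in control microglia and 28.9, 28.5, 31.1 and 36.9 FPKM in WM repopulating cells (log2 fold change of 2.06 with SE 0.44, adjusted p = 0.0177), without overlap. *Tnfsf8*, the ligand of CD30, was at 2.604, 1.499 and 2.098 FPKM in control microglia and 14.3, 10.6, 9.46 and 4.61 FPKM in WM repopulating cells (log2 fold change of 1.74 with SE 0.37, adjusted p = 0.0177), the lowest WM value being in replicate 4. No single library decided the call of *Ly9*, with an adjusted p under 0.05 in all 7 fits that leave 1 out. A single library could end the call of *Pdcd1* (lost in 6 of 7 fits, adjusted p up to 0.144 without control replicate 2), *Slamf8* (lost in 6 of 7 fits, adjusted p up to 0.0814 without control replicate 3), *Scimp* (lost in 3 of 7 fits, adjusted p up to 0.0868 without control replicate 2) and *Tnfsf8* (lost in 4 of 7 fits, adjusted p up to 0.0953 without control replicate 2). *Pdcd1* and *Tnfsf8* also failed under at least 1 other setting (adjusted p up to 0.054). On whole reads, voom gave no call for *Scimp* and *Tnfsf8* (adjusted p of 0.0837 to 0.101).

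T cell genes were among the higher DEGs at low levels. *Cd3d*, a chain of the T cell receptor complex, was at 0.224, 0.873 and 2.46 FPKM in control microglia and 4.38, 8.57, 4.06 and 6.56 FPKM in WM repopulating cells (log2 fold change of 1.74 with SE 0.37, adjusted p = 0.0174). The adaptor *Lat* was at 1.205, 0.706 and 2.27 FPKM in control microglia and 4.72, 6.54, 6.35 and 7.17 FPKM in WM repopulating cells (log2 fold change of 1.63 with SE 0.29, adjusted p = 0.00455), and *Cd5* at 0, 0.1404 and 0.452 FPKM in control microglia and 1.57, 2.53, 1.61 and 1.67 FPKM in WM repopulating cells (log2 fold change of 1.25, adjusted p = 0.0177). For all 3 genes the groups did not overlap. The receptor chain genes *Trbc1* and *Cd8b1* (log2 fold change of 1.45, adjusted p = 0.0496 and log2 fold change of 1.09, adjusted p = 0.0495), the GTPases of immunity-associated proteins *Gimap3* and *Gimap7* (log2 fold change of 1.36, adjusted p = 0.0463 and log2 fold change of 1.46, adjusted p = 0.0299) and *Ms4a4b* (log2 fold change of 1.04, adjusted p = 0.0495) were DEGs as well. *Trbc1*, *Gimap3*, *Gimap7* and *Ms4a4b* belong to families of similar sequence, among which reads could be split. Among 17 tested markers of T, B and NK cells, 15 were above 0 in log2 fold change, with a median of 0.76. Of the 17, 2 passed (*Cd3d* and *Trbc1*), or 11.8% against 1.21% of all tested genes. *Cd8a* (log2 fold change of 0.57, adjusted p = 0.589) and *Cd3e* (log2 fold change of 0.58, adjusted p = 0.257) did not pass. The part of T cells within the gate in these values was not tested. *Icos*, a costimulatory receptor of T cells, was lower instead, from 1.68 ± 0.257 to 0.277 ± 0.2499 FPKM (log2 fold change of -1.08, adjusted p = 0.0129). When each library was left out in turn, *Lat* kept an adjusted p under 0.05 in all 7 fits. Calls were lost with 1 library left out for *Cd3d* (lost in 4 of 7 fits, adjusted p up to 0.125 without control replicate 1), *Cd5* (lost in 3 of 7 fits, adjusted p up to 0.0959 without control replicate 1), *Trbc1* (lost in 5 of 7 fits, adjusted p up to 0.204 without control replicate 1) and *Cd8b1* (lost in 5 of 7 fits, adjusted p up to 0.196 without control replicate 1). Less stable to leaving 1 library out was the call of *Gimap3* (lost in 6 of 7 fits, adjusted p up to 0.217 without control replicate 1), *Gimap7* (lost in 6 of 7 fits, adjusted p up to 0.196 without control replicate 2), *Ms4a4b* (lost in 5 of 7 fits, adjusted p up to 0.252 without control replicate 2) and *Icos* (lost in 1 of 7 fits, adjusted p up to 0.0606 without control replicate 3). Settings other than leaving 1 library out also cost the call of *Cd3d*, *Cd5*, *Trbc1*, *Cd8b1*, *Gimap3*, *Gimap7*, *Ms4a4b* and *Icos* (adjusted p up to 0.195). Voom on whole reads did not call *Cd3d*, *Cd5*, *Trbc1*, *Cd8b1*, *Gimap3*, *Gimap7* and *Ms4a4b* (adjusted p of 0.0784 to 0.157).

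Some genes best known from B cells were lower. *Cd79b* (Entrez 15985), a signaling chain of the B cell receptor that microglia also express, was at 56.01, 47.9 and 46.4 FPKM in control microglia and 8.49, 9.65, 12.98 and 17.6 FPKM in WM repopulating cells. The highest WM library lay well below the lowest control, a change from 50.1 ± 5.17 to 12.2 ± 4.07 FPKM (log2 fold change of -2.001 with SE 0.30, adjusted p = 0.000707). *Tnfrsf17*, the BCMA receptor of plasma cells, was at 39.8, 39.7 and 43.5 FPKM in control microglia and 10.02, 15.99, 7.59 and 19.1 FPKM in WM repopulating cells (log2 fold change of -1.65 with SE 0.32, adjusted p = 0.00865), again without overlap. The heavy chain gene *Ighd* was at 10.04, 8.64 and 11.6 FPKM in control microglia and 2.29, 6.13, 3.57 and 3.31 FPKM in WM repopulating cells (log2 fold change of -1.25 with SE 0.29, adjusted p = 0.0278). *Ighm*, the most abundant B cell marker, was at 433 ± 76.1 FPKM in control microglia and 312 ± 28.1 FPKM in WM repopulating cells (log2 fold change of -0.46, adjusted p = 0.568). The B cell markers *Cd79a* and *Ms4a1* were below 1 FPKM in every control library. *Cd79a* was at 0.189 ± 0.233 FPKM in control microglia and 1.13 ± 0.7497 FPKM in WM repopulating cells (log2 fold change of 0.80, adjusted p = 0.277), and *Ms4a1* was too low to be tested. Against these decreases, *Tnfsf13b*, which encodes BAFF, a ligand of BCMA that myeloid cells secrete, was at 45.98, 43.8 and 42.6 FPKM in control microglia and 81.5, 80.9, 89.7 and 88.4 FPKM in WM repopulating cells. Its values varied little within groups and did not overlap (log2 fold change of 0.93 with SE 0.14, adjusted p = 0.0011). Of 57 tested cytokines and cytokine receptors, *Tnfsf13b* and *Tnfsf8* were higher and *Tnfrsf17* was lower (5.26%), with a median of 0.23. *Cd79b*, *Tnfrsf17* and *Tnfsf13b* kept an adjusted p under 0.05 whichever of the 7 libraries was left out. Less stable to leaving 1 library out was the call of *Ighd* (lost in 6 of 7 fits, adjusted p up to 0.107 without control replicate 3). Another setting of the fit ended the call of *Tnfrsf17* (adjusted p = 0.219, a pseudocount of 0.1). Changes of pseudocount, samples in the fit, scaling or weights ended the call of *Ighd* as well (adjusted p up to 0.262, with a pseudocount of 0.1).

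Among transcription factors, *Cebpb* (Entrez 12608), a regulator of myeloid and inflammatory genes, was the only 1 of 68 tested members of the myeloid list that passed (1.47%, near the 1.21% of all tested genes, median 0.09). It was at 65.9, 67.3 and 110.4 FPKM in control microglia and 266, 302, 288 and 252 FPKM in WM repopulating cells. Every WM library was more than 2-fold above the highest control, a change from 81.2 ± 25.3 to 277 ± 21.99 FPKM (log2 fold change of 1.80 with SE 0.32, adjusted p = 0.00459). *Cebpa* and *Cebpd* did not pass (log2 fold change of 0.54, adjusted p = 0.352 and log2 fold change of 0.19, adjusted p = 0.799). The retinoid X receptor gene *Rxrg*, a partner of many nuclear receptors, was at 2.39, 2.03 and 0.132 FPKM in control microglia and 10.7, 10.3, 6.52 and 3.91 FPKM in WM repopulating cells (log2 fold change of 1.88 with SE 0.40, adjusted p = 0.0176), and *Rxra*, its more widely expressed relative, at 6.54 ± 1.95 FPKM in control microglia and 6.13 ± 0.833 FPKM in WM repopulating cells (log2 fold change of -0.05, adjusted p = 0.962). *Hlf*, a transcription factor of the circadian PAR family, was lower, from 1.38 ± 0.469 to 0.143 ± 0.224 FPKM (log2 fold change of -1.06, adjusted p = 0.00909), the only call among 30 tested glucocorticoid-responsive and clock genes (3.33%, median 0.14). No single library decided the call of *Cebpb*, with an adjusted p under 0.05 in all 7 fits that leave 1 out. The call did not hold in every fit with 1 library left out for *Rxrg* (lost in 3 of 7 fits, adjusted p up to 0.121 without control replicate 3) and *Hlf* (lost in 1 of 7 fits, adjusted p up to 0.0656 without control replicate 2). *Rxrg* and *Hlf* also failed under at least 1 other setting (adjusted p up to 0.0745). On whole reads, voom gave no call for *Rxrg* (adjusted p = 0.0755).

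Among 45 tested immediate early genes, 2 passed (4.44%, against 1.21% of all tested genes), both higher. *Ier5*, a nuclear protein of the stress response, was at 86.9, 92.5 and 108 FPKM in control microglia and 278, 227, 226 and 218 FPKM in WM repopulating cells (log2 fold change of 1.30 with SE 0.19, adjusted p = 0.000747), and *Dusp10*, a phosphatase of JNK and p38, at 1.097, 1.45 and 1.78 FPKM in control microglia and 4.099, 5.196, 3.27 and 4.97 FPKM in WM repopulating cells (log2 fold change of 1.14 with SE 0.20, adjusted p = 0.00303). For both genes all WM libraries lay above all controls. The median of the list was 0.30, and the classical members *Fos*, *Jun* and *Egr1* had 0.39, 0.38 and 0.46 on the log2 scale without passing (adjusted p of 0.768, 0.811 and 0.665). Immediate early genes can be induced while cells are dissociated, and the part of dissociation in these values was not tested. Of 30 tested heat shock proteins only the cochaperone *Bag3* passed (log2 fold change of 0.96, adjusted p = 0.0213), which is 3.33% of the list, and the median was 0.41. The anti-apoptotic gene *Bcl2a1d* (Entrez 12047) was at 2.24, 2.37 and 1.17 FPKM in control microglia and 15.3, 13.1, 10.01 and 12.7 FPKM in WM repopulating cells (log2 fold change of 2.25 with SE 0.35, adjusted p = 0.00118). It is a near-identical copy of *Bcl2a1a*, at 17.7 ± 1.56 FPKM in control microglia and 28.8 ± 3.72 FPKM in WM repopulating cells, and *Bcl2a1b*, at 159 ± 18.9 FPKM in control microglia and 149 ± 10.7 FPKM in WM repopulating cells, neither of which passed, so its value is uncertain, and voom on whole reads gave adjusted p = 0.19. It was the only call among 34 tested genes of the Bcl2 family and cell death (2.94%, median 0.05). When each library was left out in turn, *Ier5*, *Dusp10* and *Bcl2a1d* kept an adjusted p under 0.05 in all 7 fits. Leaving 1 library out ended the call of *Bag3* (lost in 3 of 7 fits, adjusted p up to 0.133 without control replicate 1).

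**Figure D3:**
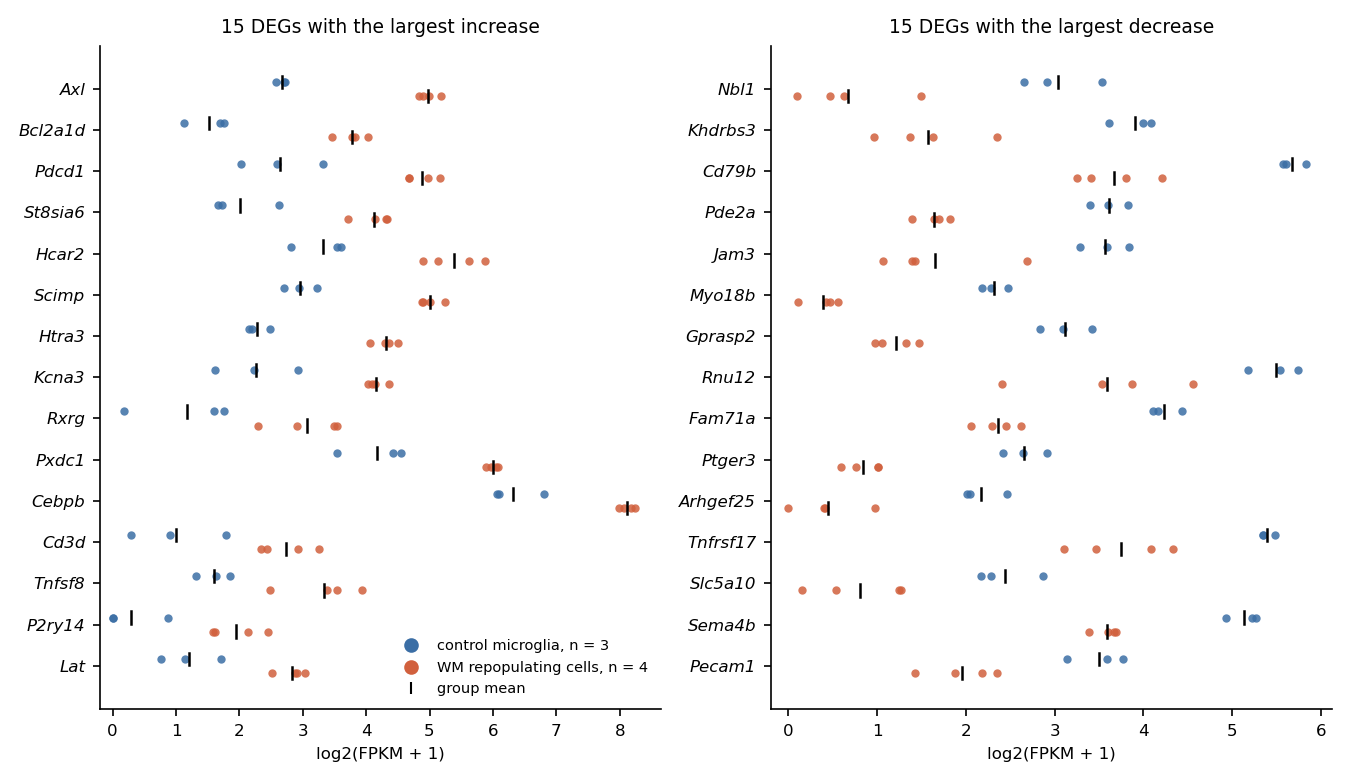
Log2(FPKM + 1) in each library (x axis) of the 15 DEGs with the largest increase (left) and the 15 with the largest decrease (right), control microglia in blue (n = 3), WM repopulating cells in orange (n = 4), black ticks for the group means. In none of the genes shown do the groups overlap, and *Axl* leads the higher genes and *Nbl1* the lower ones.

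Receptors, ion channels, transporters and signaling enzymes were among the DEGs in both directions. *Hcar2*, the receptor for niacin and beta-hydroxybutyrate, was at 10.6, 11.2 and 6.001 FPKM in control microglia and 57.5, 48.5, 34.2 and 28.8 FPKM in WM repopulating cells (log2 fold change of 2.07 with SE 0.42, adjusted p = 0.0129), and *P2ry14*, the receptor for UDP-glucose, at 0.828, 0 and 0 FPKM in control microglia and 3.39, 4.49, 2.001 and 2.07 FPKM in WM repopulating cells (log2 fold change of 1.66 with SE 0.41, adjusted p = 0.0437). Both were without overlap, although *P2ry14* was listed at 0 in 2 controls. *Gpr35* was also higher (log2 fold change of 1.01, adjusted p = 0.0165). The prostaglandin E2 receptor *Ptger3*, which lowers cyclic AMP, was lower, at 5.23, 6.55 and 4.32 FPKM in control microglia and 1.01, 1.02, 0.7003 and 0.509 FPKM in WM repopulating cells (log2 fold change of -1.81 with SE 0.24, adjusted p = 0.000206). These were the 4 calls among 46 tested purinergic and other G protein-coupled receptors (8.70%, median 0.17). Potassium channels of activated microglia and T cells were higher, *Kcna3* (Kv1.3) at 6.58, 3.69 and 2.06 FPKM in control microglia and 15.4, 16.6, 19.6 and 16.04 FPKM in WM repopulating cells (log2 fold change of 1.90 with SE 0.30, adjusted p = 0.00125) and *Kcnn4* (KCa3.1) from 6.45 ± 0.954 to 20.95 ± 5.702 FPKM (log2 fold change of 1.54, adjusted p = 0.00493). Of 52 tested ion channels and transporters, *Kcna3*, *Kcnn4* and the volume-regulated channel subunit *Lrrc8d* (log2 fold change of 0.95, adjusted p = 0.0277) were higher and the sugar transporter *Slc5a10* was lower (7.69%, median 0.16). *Slc5a10* was at 3.88, 6.29 and 3.51 FPKM in control microglia and 1.38, 1.401, 0.455 and 0.114 FPKM in WM repopulating cells (log2 fold change of -1.64 with SE 0.27, adjusted p = 0.00201). The inward rectifier gene *Kcnj12* went the other way, from 2.64 ± 0.152 to 0.709 ± 0.515 FPKM (log2 fold change of -1.15, adjusted p = 0.0129). *Pde2a* (Entrez 207728), which degrades cyclic AMP and cyclic GMP and whose upstream bases are shown above, was at 9.55, 13.2 and 11.2 FPKM in control microglia and 2.54, 2.12, 2.24 and 1.63 FPKM in WM repopulating cells. All WM libraries were near 2 FPKM and all controls near 10 FPKM or above it (log2 fold change of -1.97 with SE 0.28, adjusted p = 0.000404). Of 64 tested kinase, phosphatase, Socs and Rgs regulators, *Dusp10* was higher and *Pde2a* and the protein kinase C gene *Prkce* (log2 fold change of -0.96, adjusted p = 0.0174) were lower (4.69%, median 0.06). *Ptger3*, *Kcna3*, *Kcnn4*, *Slc5a10* and *Pde2a* kept an adjusted p under 0.05 whichever of the 7 libraries was left out. A single library could end the call of *Hcar2* (lost in 1 of 7 fits, adjusted p up to 0.0744 without control replicate 3), *P2ry14* (lost in 6 of 7 fits, adjusted p up to 0.167 without control replicate 2), *Gpr35* (lost in 2 of 7 fits, adjusted p up to 0.102 without control replicate 1) and *Lrrc8d* (lost in 5 of 7 fits, adjusted p up to 0.147 without control replicate 1). Calls were lost with 1 library left out for *Kcnj12* (lost in 1 of 7 fits, adjusted p up to 0.0543 without control replicate 1) and *Prkce* (lost in 3 of 7 fits, adjusted p up to 0.0982 without control replicate 1). The call of *Ptger3* (adjusted p = 0.0547, a pseudocount of 0.1) was lost under another setting. Changes of pseudocount, samples in the fit, scaling or weights ended the call of *P2ry14*, *Gpr35*, *Lrrc8d*, *Kcnj12* and *Prkce* as well (adjusted p up to 0.219). *Hcar2*, *P2ry14* and *Kcnj12* did not pass with voom on whole reads (adjusted p of 0.0703 to 0.169).

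Some enzymes of glycans and lipids were called, in both directions. *St8sia6* (Entrez 241230), a sialyltransferase, was at 5.18, 2.16 and 2.32 FPKM in control microglia and 18.8, 12.1, 16.6 and 19.2 FPKM in WM repopulating cells (log2 fold change of 2.12 with SE 0.24, adjusted p = 3.83e-05). *Chst1*, which adds sulfate to keratan sulfate and related glycans, was at 9.26, 12.3 and 20.3 FPKM in control microglia and 42.6, 36.8, 37.2 and 40.4 FPKM in WM repopulating cells (log2 fold change of 1.49 with SE 0.21, adjusted p = 0.000339). Both genes separated the groups fully. *Chst2* (another sulfotransferase), the ganglioside synthase *St8sia1* and the sphingosine-1-phosphate phosphatase *Sgpp1* were higher too (1.09, 0.85 and 1.29 on the log2 scale, adjusted p of 0.0346, 0.0129 and 0.0245). Of 41 tested prostaglandin, leukotriene and sphingolipid enzymes, a list that held these sialyltransferases and *Chst1*, 4 passed, all higher (9.76%, median 0.10), and none of the 4 makes prostaglandins or leukotrienes. The monoacylglycerol lipase *Mgll*, which breaks down the endocannabinoid 2-arachidonoylglycerol, was lower, from 23.3 ± 0.583 to 11.8 ± 1.83 FPKM (log2 fold change of -0.94, adjusted p = 0.0384), as was the transporter *Abcg3* (log2 fold change of -1.37, adjusted p = 0.0262), the only calls among 48 tested genes of lipid uptake and transport (4.17%, median 0.08). Single enzymes of other pathways were higher, among them *Haao* of the kynurenine pathway, from 13.1 ± 2.76 to 38.9 ± 2.38 FPKM (log2 fold change of 1.51, adjusted p = 0.0149), the alanine aminotransferase *Gpt* (log2 fold change of 1.54, adjusted p = 0.0106) and the heme enzyme *Cpox* (log2 fold change of 1.27, adjusted p = 0.0402). No single library decided the call of *St8sia6* and *Chst1*, with an adjusted p under 0.05 in all 7 fits that leave 1 out. Calls were lost with 1 library left out for *Chst2* (lost in 5 of 7 fits, adjusted p up to 0.143 without control replicate 3), *St8sia1* (lost in 2 of 7 fits, adjusted p up to 0.0626 without control replicate 2), *Sgpp1* (lost in 6 of 7 fits, adjusted p up to 0.109 without control replicate 1) and *Mgll* (lost in 7 of 7 fits, adjusted p up to 0.125 without WM replicate 3). Less stable to leaving 1 library out was the call of *Abcg3* (lost in 6 of 7 fits, adjusted p up to 0.109 without control replicate 1), *Haao* (lost in 1 of 7 fits, adjusted p up to 0.0879 without control replicate 2), *Gpt* (lost in 1 of 7 fits, adjusted p up to 0.0547 without control replicate 2) and *Cpox* (lost in 7 of 7 fits, adjusted p up to 0.125 without WM replicate 3). *Chst2*, *St8sia1*, *Mgll*, *Abcg3* and *Cpox* also failed under at least 1 other setting (adjusted p up to 0.138). On whole reads, voom gave no call for *Chst2*, *Abcg3* and *Gpt* (adjusted p of 0.0539 to 0.0784).

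Genes of adhesion, matrix and the cytoskeleton changed in both directions. The secreted serine protease *Htra3* was at 3.45, 4.59 and 3.62 FPKM in control microglia and 21.6, 15.7, 19.6 and 18.7 FPKM in WM repopulating cells (log2 fold change of 2.02 with SE 0.31, adjusted p = 0.000811), and the collagen cross-linking enzyme *Lox* was at 0, 0 and 0.0432 FPKM in control microglia and 2.71, 1.098, 1.35 and 0.8903 FPKM in WM repopulating cells (adjusted p = 0.0263), with 1 read in all over the 3 controls. *Lox* met the filter through the WM libraries of 0 hr, where it was high. Of 38 tested genes of the extracellular matrix and proteases, *Htra3* was higher and *Serpinf1* lower (5.26%, median 0.21). *Serpinf1*, which encodes the secreted factor PEDF, went from 50.6 ± 7.45 to 28.01 ± 4.31 FPKM (log2 fold change of -0.83, adjusted p = 0.0299). The junctional adhesion molecule *Jam3* was at 11.03, 8.77 and 13.3 FPKM in control microglia and 1.101, 5.47, 1.696 and 1.63 FPKM in WM repopulating cells (log2 fold change of -1.92 with SE 0.33, adjusted p = 0.00301), with WM replicate 2 well above the other 3 WM libraries. *Pecam1* (CD31) was at 7.83, 12.7 and 11.03 FPKM in control microglia and 1.68, 3.54, 4.08 and 2.68 FPKM in WM repopulating cells (log2 fold change of -1.54 with SE 0.35, adjusted p = 0.0259). It is also a marker of endothelium, and the endothelial and mural list, led by *Bsg*, summed to 458 to 503 FPKM in control microglia and 402 to 547 FPKM in WM repopulating cells. The tetraspanin *Tspan32* was higher (log2 fold change of 1.22, adjusted p = 0.00865), as were the Rac-inactivating protein *Arhgap15*, from 3.32 ± 0.747 to 10.4 ± 1.399 FPKM (log2 fold change of 1.41, adjusted p = 0.000747), the scaffold *Epb41l3* (log2 fold change of 1.41, adjusted p = 0.0282) and the actin-associated *Pstpip1* (log2 fold change of 1.35, adjusted p = 0.0116). Of 48 tested integrins and adhesion genes, *Tspan32* was higher and *Jam3* and *Pecam1* were lower (6.25%, median 0.14). *Arhgef25*, a guanine nucleotide exchange factor, was at 3.12, 3.04 and 4.503 FPKM in control microglia and 0, 0.332, 0.323 and 0.968 FPKM in WM repopulating cells (log2 fold change of -1.72 with SE 0.31, adjusted p = 0.0049). All 4 WM libraries were below 1 FPKM, far under the controls. Of 84 tested genes of actin, small GTPases and migration, 3 were higher (*Arhgap15*, *Epb41l3* and the myosin *Myo5a*, log2 fold change of 0.81, adjusted p = 0.00865) and 1 was lower (4.76%, median 0.03). Semaphorins, ligands of plexin receptors, gave all 3 calls among 21 tested guidance genes (14.3%, median 0.02). Of the 3, *Sema6d* met the filter of 1 FPKM only through the control libraries of 0 hr, where it was high. Its call is therefore not independent of the filter. *Sema4b* was at 36.2, 37.4 and 29.4 FPKM in control microglia and 9.48, 11.2, 11.7 and 11.9 FPKM in WM repopulating cells (log2 fold change of -1.55 with SE 0.33, adjusted p = 0.0159), *Sema6d* was also lower (log2 fold change of -0.99, adjusted p = 0.0129) and *Sema4d* was higher (log2 fold change of 0.61, adjusted p = 0.0346). When each library was left out in turn, *Htra3*, *Jam3*, *Arhgap15*, *Myo5a*, *Pstpip1* and *Arhgef25* kept an adjusted p under 0.05 in all 7 fits. Less stable to leaving 1 library out was the call of *Lox* (lost in 5 of 7 fits, adjusted p up to 0.0868 without control replicate 2), *Serpinf1* (lost in 4 of 7 fits, adjusted p up to 0.146 without control replicate 2), *Pecam1* (lost in 4 of 7 fits, adjusted p up to 0.113 without control replicate 2) and *Tspan32* (lost in 1 of 7 fits, adjusted p up to 0.0585 without control replicate 2). The call did not hold in every fit with 1 library left out for *Epb41l3* (lost in 6 of 7 fits, adjusted p up to 0.106 without control replicate 3), *Sema4b* (lost in 3 of 7 fits, adjusted p up to 0.0719 without control replicate 2), *Sema6d* (lost in 1 of 7 fits, adjusted p up to 0.0656 without control replicate 2) and *Sema4d* (lost in 6 of 7 fits, adjusted p up to 0.151 without control replicate 1). The call of *Myo5a* (adjusted p = 0.0994, only the 0 hr libraries) was lost under another setting. Settings other than leaving 1 library out also cost the call of *Lox*, *Sema6d* and *Sema4d* (adjusted p up to 0.121). Voom on whole reads did not call *Pstpip1* (adjusted p = 0.0994).

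The largest decrease on the log2(FPKM + 1) scale was in *Nbl1* (Entrez 17965), a secreted antagonist of BMP signaling, at 5.32, 6.51 and 10.6 FPKM in control microglia and 0.385, 0.539, 0.0729 and 1.82 FPKM in WM repopulating cells. No WM library reached the lowest control, though replicate 4 was above the other 3 (log2 fold change of -2.36 with SE 0.48, adjusted p = 0.0129). With voom *Hlf* had the larger decrease (log2 fold change of -4.28, against -3.93 for *Nbl1*). *Khdrbs3*, an RNA-binding regulator of splicing, was at 15.004, 15.9 and 11.3 FPKM in control microglia and 1.57, 4.096, 0.9497 and 2.101 FPKM in WM repopulating cells (log2 fold change of -2.32 with SE 0.31, adjusted p = 0.000206). *Myo18b*, an unconventional myosin, was at 4.55, 3.88 and 3.54 FPKM in control microglia and 0.475, 0.344, 0.0776 and 0.388 FPKM in WM repopulating cells (log2 fold change of -1.92 with SE 0.16, adjusted p = 2.58e-07), the smallest adjusted p of all tested genes. *Gprasp2*, which sorts G protein-coupled receptors to lysosomes, was at 9.703, 6.12 and 7.55 FPKM in control microglia and 0.959, 1.78, 1.51 and 1.08 FPKM in WM repopulating cells (log2 fold change of -1.91 with SE 0.28, adjusted p = 0.000575). For these genes the groups did not overlap. *Upk1b*, a tetraspanin of the uroplakin family, went from 233 ± 53.4 to 93.8 ± 20.8 FPKM (log2 fold change of -1.30 with SE 0.27, adjusted p = 0.0152). *Fam71a* was at 20.6, 16.2 and 16.9 FPKM in control microglia and 5.16, 4.46, 3.91 and 3.16 FPKM in WM repopulating cells (log2 fold change of -1.88 with SE 0.44, adjusted p = 0.0337). *Cck*, a neuropeptide gene, went from 2.55 ± 0.903 to 0.198 ± 0.154 FPKM (log2 fold change of -1.54, adjusted p = 0.0495), with 0 to 2 reads in each WM library. A pair of short non-coding RNA genes was lower as well, *Rnu12*, the U12 spliceosomal RNA, at 52.6, 45.5 and 35.3 FPKM in control microglia and 22.6, 10.6, 4.28 and 13.7 FPKM in WM repopulating cells (log2 fold change of -1.90, adjusted p = 0.00809), and *Rny3*, a Y RNA, at 81.02, 300.5 and 137 FPKM in control microglia and 45.6, 81.5, 41.98 and 59.7 FPKM in WM repopulating cells (log2 fold change of -1.42, adjusted p = 0.0333). The *Rny3* groups overlapped, WM replicate 2 lying just above control replicate 1, and both RNAs have similar copies in the genome, so their values are uncertain. *Khdrbs3*, *Myo18b*, *Gprasp2* and *Rnu12* kept an adjusted p under 0.05 whichever of the 7 libraries was left out. The call did not hold in every fit with 1 library left out for *Nbl1* (lost in 1 of 7 fits, adjusted p up to 0.0684 without control replicate 3), *Upk1b* (lost in 3 of 7 fits, adjusted p up to 0.0971 without control replicate 2), *Fam71a* (lost in 7 of 7 fits, adjusted p up to 0.125 without control replicate 1) and *Cck* (lost in 7 of 7 fits, adjusted p up to 0.165 without control replicate 2). Leaving 1 library out ended the call of *Rny3* (lost in 5 of 7 fits, adjusted p up to 0.244 without control replicate 2). Another setting of the fit ended the call of *Rnu12* (adjusted p = 0.0602, only the 0 hr libraries). Changes of pseudocount, samples in the fit, scaling or weights ended the call of *Fam71a*, *Cck* and *Rny3* as well (adjusted p up to 0.146). *Cck*, *Rnu12* and *Rny3* did not pass with voom on whole reads (adjusted p of 0.057 to 0.146).

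The other DEGs fall under no single heading. Among the higher genes, *Pxdc1* was at 10.6, 20.4 and 22.5 FPKM in control microglia and 65.1, 61.9, 58.5 and 66.99 FPKM in WM repopulating cells (log2 fold change of 1.83 with SE 0.32, adjusted p = 0.0038), without overlap. The secreted fibrinogen-like protein *Fgl2* (log2 fold change of 1.41, adjusted p = 0.032), the transmembrane serine protease *St14* (log2 fold change of 1.09, adjusted p = 0.0315), the insulin receptor substrate *Irs2* (log2 fold change of 1.04, adjusted p = 0.0403), the calcineurin subunit *Ppp3cc* (log2 fold change of 1.35, adjusted p = 0.0165) and *Samd9l* (log2 fold change of 1.42, adjusted p = 0.00536), which interferon induces, were higher. *Ccdc92* was at 0, 0 and 0 FPKM in control microglia and 1.202, 0.983, 0.342 and 1.76 FPKM in WM repopulating cells (adjusted p = 0.0346). *Dmrtb1*, *Gas2l1*, *Gdpd5*, *Gm15964*, *Lrrc75a*, *Map2k3os*, *Tldc1*, *Tmem220* and *Xxylt1* were higher with log2 fold changes of 1.11 to 1.502. Among the lower genes, *Ttyh1*, a chloride channel-like protein of neural cells, went from 3.03 ± 0.816 to 0.583 ± 0.462 FPKM (log2 fold change of -1.37, adjusted p = 0.00171), and *Trim30c*, which has similar copies among the Trim30 genes, from 5.02 ± 0.733 to 1.37 ± 0.239 FPKM (log2 fold change of -1.34, adjusted p = 0.00171). The endosomal adaptor *Tom1l1* (log2 fold change of -1.07, adjusted p = 0.0295), the muscle fusion gene *Tmem8c* (log2 fold change of -1.45, adjusted p = 0.0201) and the CUB and Sushi domain gene *Csmd3* (log2 fold change of -1.02, adjusted p = 0.0129) were lower too. *4833423F13Rik*, *9230114K14Rik*, *AU041133*, *C030034I22Rik*, *Ccdc36*, *Gm21710*, *Thsd1*, *Tmem44* and *Zfp934* were lower with log2 fold changes of -1.46 to -1.03. *Map2k3os* lies antisense to *Map2k3*, and without a stated strand setting its reads cannot be told apart from those of its partner. The groups of *Map2k3os* and *4833423F13Rik* overlapped. No single library decided the call of *Pxdc1*, *Samd9l*, *Ttyh1*, *Trim30c*, *AU041133*, *C030034I22Rik*, *Ccdc36* and *Thsd1*, with an adjusted p under 0.05 in all 7 fits that leave 1 out. Leaving 1 library out ended the call of *Fgl2* (lost in 5 of 7 fits, adjusted p up to 0.158 without control replicate 3), *St14* (lost in 7 of 7 fits, adjusted p up to 0.125 without control replicate 1), *Irs2* (lost in 6 of 7 fits, adjusted p up to 0.178 without control replicate 1) and *Ppp3cc* (lost in 3 of 7 fits, adjusted p up to 0.114 without control replicate 1). A single library could end the call of *Ccdc92* (lost in 6 of 7 fits, adjusted p up to 0.113 without WM replicate 4), *Dmrtb1* (lost in 5 of 7 fits, adjusted p up to 0.174 without control replicate 2), *Gas2l1* (lost in 5 of 7 fits, adjusted p up to 0.216 without control replicate 1) and *Gdpd5* (lost in 4 of 7 fits, adjusted p up to 0.121 without control replicate 3). Calls were lost with 1 library left out for *Gm15964* (lost in 2 of 7 fits, adjusted p up to 0.0932 without control replicate 1), *Lrrc75a* (lost in 1 of 7 fits, adjusted p up to 0.0653 without control replicate 2), *Map2k3os* (lost in 5 of 7 fits, adjusted p up to 0.225 without control replicate 1) and *Tldc1* (lost in 6 of 7 fits, adjusted p up to 0.131 without control replicate 1). Less stable to leaving 1 library out was the call of *Tmem220* (lost in 7 of 7 fits, adjusted p up to 0.134 without control replicate 2), *Xxylt1* (lost in 3 of 7 fits, adjusted p up to 0.0795 without control replicate 3), *Tom1l1* (lost in 5 of 7 fits, adjusted p up to 0.117 without control replicate 2) and *Tmem8c* (lost in 5 of 7 fits, adjusted p up to 0.0763 without control replicate 3). The call did not hold in every fit with 1 library left out for *Csmd3* (lost in 2 of 7 fits, adjusted p up to 0.0635 without control replicate 2), *4833423F13Rik* (lost in 5 of 7 fits, adjusted p up to 0.134 without control replicate 1), *9230114K14Rik* (lost in 3 of 7 fits, adjusted p up to 0.0949 without control replicate 1) and *Gm21710* (lost in 4 of 7 fits, adjusted p up to 0.125 without control replicate 1). Leaving 1 library out ended the call of *Tmem44* (lost in 4 of 7 fits, adjusted p up to 0.0983 without control replicate 3) and *Zfp934* (lost in 3 of 7 fits, adjusted p up to 0.0676 without control replicate 3). The call of *Ttyh1* (adjusted p = 0.0591, a pseudocount of 0.1), *Ccdc36* (adjusted p = 0.0644, only the 0 hr libraries) and *Thsd1* (adjusted p = 0.102, a pseudocount of 0.1) was lost under another setting. *St14*, *Irs2*, *Ppp3cc*, *Ccdc92*, *Dmrtb1*, *Gas2l1*, *Gdpd5*, *Lrrc75a*, *Map2k3os*, *Tldc1*, *Tmem220*, *Tom1l1*, *4833423F13Rik*, *9230114K14Rik*, *Gm21710* and *Zfp934* also failed under at least 1 other setting (adjusted p up to 0.135). On whole reads, voom gave no call for *Fgl2*, *Irs2*, *Ppp3cc*, *Ccdc92*, *Dmrtb1*, *Gdpd5*, *Gm15964*, *Map2k3os*, *Tldc1*, *Tmem220*, *Xxylt1*, *4833423F13Rik* and *Gm21710* (adjusted p of 0.0502 to 0.13).

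The homeostatic profile gave a single call. Of 38 tested homeostatic genes, 20 had a log2 fold change above 0 and 18 below it, the median was 0.01, and only *Crybb1* passed (2.63%). *Crybb1*, a crystallin gene that adult microglia express, was at 485, 568 and 517 FPKM in control microglia and 184, 189, 180.3 and 197 FPKM in WM repopulating cells. The values were tight within each group and far apart between them (log2 fold change of -1.47 with SE 0.34, adjusted p = 0.03). Border-associated macrophage markers were lower on balance, with 16 of 20 tested markers below 0 and a median of -0.54. Only *Cd209f* of the 20 passed (5%, against 1.21% of all tested genes), from 2.71 ± 1.67 to 0.467 ± 0.365 FPKM (log2 fold change of -1.27, adjusted p = 0.0496). *Mrc1*, *Pf4* and *Cbr2* had log2 fold changes of -0.95, -1.07 and -1.58 (adjusted p of 0.142, 0.463 and 0.0699), with the highest values in control replicate 1. A single library could end the call of *Crybb1* (lost in 7 of 7 fits, adjusted p up to 0.109 without control replicate 2) and *Cd209f* (lost in 5 of 7 fits, adjusted p up to 0.282 without control replicate 2). Settings other than leaving 1 library out also cost the call of *Crybb1* and *Cd209f* (adjusted p up to 0.126). Voom on whole reads did not call *Cd209f* (adjusted p = 0.105).

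Of 71 tested interferon-stimulated genes, 61 were above 0 in log2 fold change (51.6% of all tested genes were), 1.41% were called, near the 1.21% of all tested genes, the median was 0.24 and *Ifi204*, a nucleic acid sensor, was that call, at 7.19, 4.36 and 2.92 FPKM in control microglia and 11.6, 11.999, 16.8 and 11.01 FPKM in WM repopulating cells (log2 fold change of 1.30 with SE 0.28, adjusted p = 0.0202). Its 4 WM libraries lay above the controls, WM replicate 3 being the highest. Of 25 tested genes of MHC class I presentation, 22 were above 0, the median was 0.23 and the nonclassical gene *H2-Q7* passed (4% of the list), at 2.91, 2.36 and 3.14 FPKM in control microglia and 11.03, 11.4, 8.53 and 11.9 FPKM in WM repopulating cells (log2 fold change of 1.62 with SE 0.36, adjusted p = 0.0247). Reads of *H2-Q7* can be shared with its close relatives, so that its level is uncertain. Of 33 tested genes of MHC class II and costimulation, 26 were above 0, with a median of 0.42. The 3 calls there (9.09%) were *Ly9*, *Slamf8* and *Pdcd1*, none of which presents antigen, and the class II genes *H2-Aa* and *Cd74* had -0.34 and -0.37 on the log2 scale (adjusted p of 0.683 and 0.652). Calls were lost with 1 library left out for *Ifi204* (lost in 3 of 7 fits, adjusted p up to 0.121 without control replicate 3) and *H2-Q7* (lost in 6 of 7 fits, adjusted p up to 0.0998 without control replicate 2). *Ifi204* and *H2-Q7* did not pass with voom on whole reads (adjusted p of 0.102 to 0.13).

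Inflammatory and housekeeping lists held no or few called genes. No member passed among 31 tested chemokines and chemokine receptors, 40 genes of NF-kB and the inflammasome, 33 Toll-like and nucleic acid sensors and 19 complement genes, with medians of 0.06, 0.25, 0.25 and 0.14. *Tnf* and *Il1b*, the main inflammatory cytokines of microglia, had -0.30 (SE 0.33) and 0.48 (SE 0.65) and did not pass. Likewise, no call was made among 83 genes of oxidative phosphorylation (median -0.08), 81 cytosolic ribosomal proteins (-0.04), 42 proteasome genes (-0.11), 28 of glycolysis (0.16), 26 of cholesterol synthesis (0.07), 42 of autophagy (0.06), 29 of endoplasmic reticulum stress (0.01), 44 of oxidative stress, iron and heme (0.07) and 30 of TGF-beta signaling (-0.01). Of 71 tested genes of lysosomes and cathepsins, 52 were above 0 (against 51.6% of all tested genes, median 0.13) and the cathepsin *Ctsh* passed (1.41%, near the 1.21% of all tested genes), from 534 ± 40.2 to 799.9 ± 34.8 FPKM (log2 fold change of 0.58, adjusted p = 0.00965). None of 48 genes of DNA replication and S phase (median 0.01) and none of 34 genes of cell cycle arrest and p53 (0.21) passed, and of 53 genes of mitosis (0.18) only the kinesin *Kif2c* did (1.89%, against 1.21% of all tested genes), from 0.623 ± 0.277 to 2.301 ± 0.601 FPKM (log2 fold change of 1.02, adjusted p = 0.0129). Across the 15 lists with no call, 65 of 610 tested genes had an unadjusted limma p under 0.05, compared with 1514 of all 12684 tested genes, and voom called 0 of the 610. These lists were picked for having no call in the same libraries, so both values follow in part from that choice. In none of the lists, the replication licensing inhibitor *Gmnn* (log2 fold change of 1.26, adjusted p = 0.0398) and the nuclease *Dna2* (log2 fold change of 1.02, adjusted p = 0.0437) were DEGs. In all, 25 of the 40 lists held at least 1 gene past the adjusted p, and 59 of the 99 DEGs belonged to no list. Less stable to leaving 1 library out was the call of *Ctsh* (lost in 1 of 7 fits, adjusted p up to 0.0534 without control replicate 3), *Kif2c* (lost in 1 of 7 fits, adjusted p up to 0.0868 without control replicate 2), *Gmnn* (lost in 5 of 7 fits, adjusted p up to 0.209 without control replicate 3) and *Dna2* (lost in 6 of 7 fits, adjusted p up to 0.211 without control replicate 1). *Kif2c*, *Gmnn* and *Dna2* also failed under at least 1 other setting (adjusted p up to 0.133). On whole reads, voom gave no call for *Kif2c*, *Gmnn* and *Dna2* (adjusted p of 0.0843 to 0.147).

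**Figure D4:**
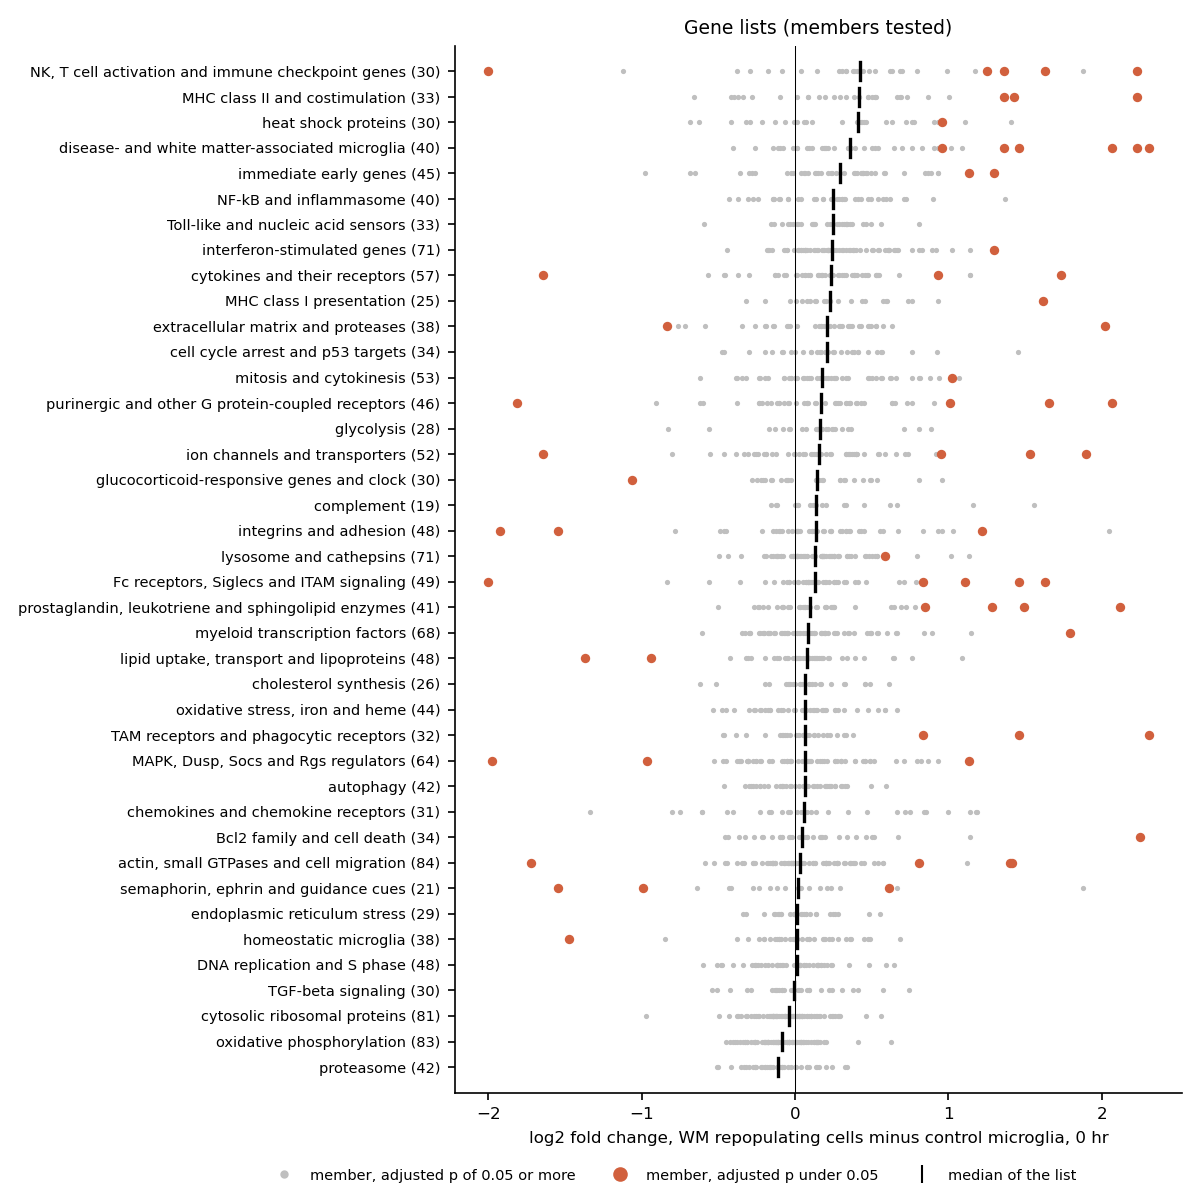
Log2 fold change of WM repopulating cells minus control microglia (x axis) for the tested members of 40 gene lists (y axis, number tested in parentheses), gray where the adjusted p was 0.05 or more and orange where it was under 0.05, with a black bar at the median of each list. Medians run from -0.11 for the proteasome to 0.43 for NK and T cell activation genes, and no list has more than 6 called genes.

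Whether the difference was also present under inflammation was read in other libraries, from mice sampled 6 hr (4 WM and 5 control) and 24 hr (4 and 4) after LPS. The contrasts of all times come from the same fit of 24 libraries, in which each gene has a shared spread. A gene with a small spread is thus favored at every time, and passes at 6 and 24 hr are not fully independent of the calls at 0 hr. Of the 99 DEGs, 90 had the same sign at 6 hr and 91 at 24 hr, compared with 55.3% and 59.8% of all tested genes. At 6 hr 12 of the 99 passed the adjusted p in the same direction (8 higher and 4 lower), where 0.323% of all tested genes passed in either direction (0.213% higher and 0.110% lower). At 24 hr 45 of the 99 passed in the same direction (24 higher and 21 lower), where 3.97% of all tested genes passed (1.68% higher and 2.29% lower). None passed in the opposite direction at either time, and 51 passed at neither. The median log2 fold change of the 60 higher DEGs went from 1.39 at 0 hr, where they were chosen, to 0.45 at 6 hr and 0.63 at 24 hr, and that of the 39 lower DEGs from -1.42 to -0.57 and -0.98.

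The 9 DEGs that passed at all 3 times were the higher genes *Axl*, *Chst1*, *Clec7a*, *Htra3*, *P2ry14* and *Tnfsf8* and the lower genes *Jam3*, *Pde2a* and *Rny3*. *Axl* had a log2 fold change of 1.41 at 6 hr (adjusted p = 0.00922) and 2.68 at 24 hr (adjusted p = 8.49e-06). At 24 hr its level was 4.01 ± 1.93 FPKM in control microglia and 29.5 ± 4.77 FPKM in WM repopulating cells (n = 4 each). *Clec7a* had 1.81 and 1.29 (adjusted p of 0.000328 and 0.00528), and *Chst1* 2.13 and 1.17 (adjusted p of 2.78e-07 and 0.000929). *Pde2a* stayed lower at -1.77 and -1.14 (adjusted p of 0.000328 and 0.0118). *Tnfsf13b*, within the fold limit at 0 hr, passed at both other times, with 1.07 and 1.08 (adjusted p of 5.58e-05 and 3.85e-05). *Cd79b* was lower at 24 hr (log2 fold change of -1.99, adjusted p = 0.000143) but did not pass at 6 hr (log2 fold change of -0.78, adjusted p = 0.254).

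Other genes passed at 0 hr and at neither later time. *Ly9* had 0.63 at 6 hr and 0.28 at 24 hr (adjusted p of 0.0854 and 0.412). In the same order, *Lat* had 0.40 and 0.37 (adjusted p of 0.684 and 0.511), *Cd5* -0.25 and 0.15 (adjusted p of 0.828 and 0.808) and *Cd3d* 0.41 and -0.58 (adjusted p of 0.776 and 0.392). A difference between times was shown for few genes. An interaction term passed the adjusted p for 1 of the 99 DEGs at 6 hr (*Myo18b*) and for 2 at 24 hr (*Myo18b* and *Gmnn*), against 3 (0.0237%) and 11 (0.0867%) of all tested genes. *Apoe*, which did not pass at 0 hr, passed at 6 hr (log2 fold change of 1.24, adjusted p = 0.011) and 24 hr (log2 fold change of 1.83, adjusted p = 9.49e-05), while its interaction terms did not (adjusted p of 0.749 and 0.254).

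**Figure D5:**
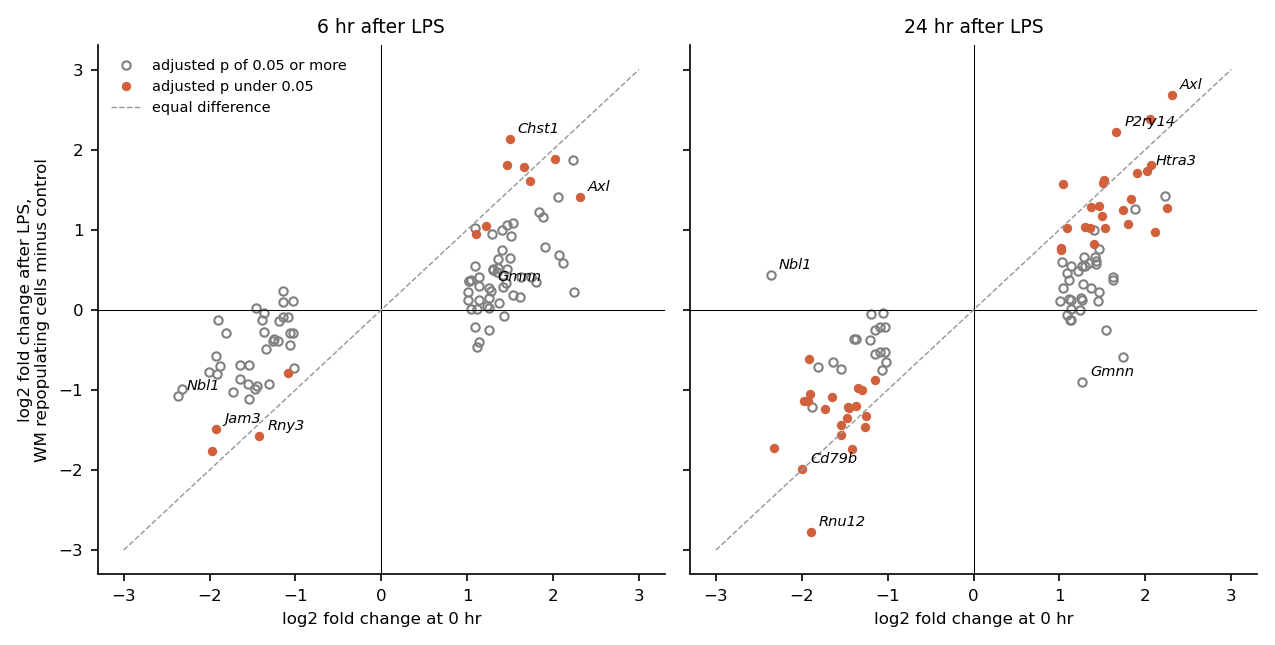
Log2 fold change of WM repopulating cells minus control microglia at 6 hr (left) and 24 hr (right) after LPS (y axes) against that at 0 hr (x axes) for the 99 DEGs of 0 hr, filled where the adjusted p at the later time was under 0.05 (12 and 45 genes in the same direction), with the dashed line at equal difference. The gap along the x axis comes from the fold limit that chose the genes, and 90 and 91 of the 99 points keep their sign, *Nbl1* at 24 hr being among those that do not.

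The same kind of sorted cells was also sequenced after GLOBAL repopulation, in which PLX3397 was given for 7 days in place of 14 and the titles again give 28 days of recovery. That table was normalized on its own and tested only within itself (n = 3 against n = 4 controls), and values are set side by side here. Of the 99 DEGs, 95 were tested there and none passed, as was the case for all 16651 genes (0.00%), of which 1504 had an unadjusted p under 0.05. This fit held 7 libraries, against 24 in the fit that gave the 99 DEGs, so the counts of the 2 fits are not alike in power. The study itself reports differentially expressed genes after GLOBAL repopulation, fewer than after WM repopulation. The sign was the same for 72 of the 95, compared with 53.5% of the 12090 genes tested in both tables, and the medians were 0.40 for the higher and -0.60 for the lower DEGs. *Axl* was at 10.96 ± 3.18 FPKM in GLOBAL control and 37.1 ± 9.001 FPKM after GLOBAL repopulation (log2 fold change 1.68, adjusted p = 0.0776). *Clec7a* was at 8.62 ± 2.03 FPKM in GLOBAL control and 13.5 ± 5.37 FPKM after GLOBAL repopulation (log2 fold change 0.54, adjusted p = 0.589). The 95% interval of the *Clec7a* difference ran from -0.08 to 1.15. *Ly9* was at 8.16 ± 2.42 FPKM in GLOBAL control and 18.7 ± 5.04 FPKM after GLOBAL repopulation (log2 fold change 1.11, adjusted p = 0.275), and *Tnfsf13b* at 14.8 ± 1.81 FPKM in GLOBAL control and 33.6 ± 3.13 FPKM after GLOBAL repopulation (log2 fold change 1.14, adjusted p = 0.0776). A difference between the tables was not tested.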

How the data were processed

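RNA of sorted CD11b+CD45int cells was sequenced as paired ends, 1 library per sample, with a read length on which the labels and the study's methods differ. According to the submitters' processing notes, the authors used STAR, featureCounts, edgeR and limma with mm10. The strand setting is not given in the sources used here. The extraction protocol in the labels describes dissected tissue, whereas the tissue label and the study's methods describe sorted cells of whole hemispheres. The authors deposited FPKM values per gene (RPKM in their methods), and 100.0% of genes gave whole reads within 0.02 reads, from which depth was read. Intervals and floors from reads cover counting error only. The labels do not say whether samples were separate mice, though the study's methods count mice as n, and p-values measure the spread between these samples.

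Log2(FPKM + 1) of genes with at least 1 FPKM in at least 3 of 24 libraries was fitted with limma 3.58.1 (R 4.3.3, trend and one spread for all 6 groups), after tests on simulated data. Figures and summaries used Python 3.11.15. Genes past both limits were named, with values by library for the 15 at each end and for up to 4 called members of a list, as were genes the study discusses. 1 of the microglial markers is not reported here. Members, lists and tests were chosen with earlier results of these data known. Alternatives were another pseudocount, filters, normalizations, weights, a replicate block, voom and leaving out libraries.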

Additional observations from a re-analysis of the deposited data

Results flagged for a closer look

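Among 160 sets of 4 WM libraries, 1 for each gene named or called, 8 held a library far from the other 3 by Dixon's test at the 95% level, where chance gives about 1 in 20. They were *Cd5* in WM replicate 2 (2.525 FPKM), *Jam3* in replicate 2 (5.465 FPKM), *Tle2*, a transcriptional corepressor, in replicate 2 (1.982 FPKM), *Hlf* in replicate 3 (0.4763 FPKM), *Ifi204* in replicate 3 (16.79 FPKM), *Ier5* in replicate 1 (278.4 FPKM), *Kcnn4* in replicate 1 (29.42 FPKM) and *Pilra* in replicate 1 (33.27 FPKM).

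The difference between WM repopulating cells and control microglia was itself tested between times with an interaction term in limma. It changed by 1.3478 on the log2 scale for *Myo18b* and by 1.5595 for *E030042O20Rik* from 0 hr to 6 hr. From 0 hr to 24 hr it changed by 1.3012 for *Myo18b* and by -2.164 for *Gmnn*.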

How the results depend on the processing

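None of the 154 genes past the adjusted p changed sign under any alternative that tested it, though the balance of higher and lower DEGs did without WM replicate 2 and with voom. The count of 99 DEGs stayed between 82 and 108 under the other settings of filter, libraries in the fit, scaling, pseudocount, gene type, trend and weights, and was 73 with voom. It was 66 to 80 with 1 library left out, when genes past the adjusted p numbered 75 to 108 (main 154). Without both libraries highest in neutrophil markers these counts were 38 and 40. Fewer samples entered these fits, and the part of sample number or of neutrophil content in the drop was not tested. Lists with a called gene numbered 18 to 22 with 1 library left out, against 25. Leaving out control replicate 2 cost most calls (66 DEGs). Of the 99 DEGs, 27 kept an adjusted p under 0.05 in every such setting and every fit that leaves 1 library out, and 59 with voom. *Cst7*, not a DEG, passed without WM replicate 3 and without both neutrophil-high libraries. The replicate block gave 93 DEGs and 140 genes past the adjusted p. Replicate numbers did not pair the samples, as the deviations of same-numbered libraries correlated at -0.0357, -0.0128 and -0.0205. Depth of 6384799 to 8379693 reads limits genes near 0.0642 to 0.0792 FPKM, the value of 1 read on 2 kb.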
